A study of Homo sapiens with 4 samples.

Results

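Nascent RNA of U2OS cells in isotonic medium was described here across all genes, from the 2 libraries that GEO's labels call isotonic, replicates 1 and 2, out of 4 libraries in the series. U2OS is an established human osteosarcoma line, and the derivative used carried a stable GFP-DCP1a transgene that overexpressed this decapping cofactor and was held under G418 selection. Both libraries came from cells in medium at 150 mM sodium, mock-supplemented with ordinary phosphate-buffered saline. Labelling used bromouridine at 2 mM for 30 min, and the cells were harvested with 0 h of chase. The other libraries of the series, from cells in hypertonic medium, were not analysed here. The labels do not say whether the replicates came from separate cultures, so the spread between them may be technical, nor whether the transgenic line was a single clone.

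Bru-seq reads RNA made during a short pulse: bromouridine is built into growing transcripts, and an antibody against it pulls them down. Reads therefore cover introns as well as exons, long genes collect counts along their whole span, and the level of a gene follows its rate of transcription more closely than in ordinary RNA-seq, where stable messenger RNA dominates. U2OS cells are known for an RB1 gene without inactivating mutations, for a silenced CDKN2A locus, and for keeping their telomeres without telomerase, by the recombination route called alternative lengthening of telomeres. Bone-forming osteoblasts are defined by the transcription factors RUNX2 and SP7 and by matrix genes such as COL1A1, COL1A2, IBSP and BGLAP.

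The deposited tables held 44888307 counts in replicate 1 and 23410787 in replicate 2, of which 41932649 and 21865138 lay on the sense strand of the 57428 genes used. Levels are given as the deposited RPKM (reads scaled by gene length and library size), first for replicate 1 and then for replicate 2. A gene was called transcribed when its sense RPKM was at least 0.5 in both libraries. Differences between the replicates are log2 ratios of replicate 2 to replicate 1 after TMM scaling with edgeR, over the 17303 genes with at least 50 sense counts in both libraries together. With 1 library against 1 they carry no p-value, and intervals printed beside them cover counting error only.

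Of 19744 protein-coding genes, 7143 (36.2%) were transcribed, and 2707 (13.7%) had no sense count in either library. Among the remainder, 5163 genes had a mean RPKM above 0 and up to 0.1 and 4117 lay between 0.1 and 0.5. By the mean of the libraries, whether or not each passed on its own, 5568 had an RPKM of 0.5 to 2, 2039 of 2 to 10, and 150 of 10 or more. Of the transcribed genes, 5414 had no overlap with another gene on their strand and no gene of 4 or more times their level ending on that strand less than 10 kb before them. The other 1729 had such an overlap or neighbour.

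Noncoding classes were transcribed less often. Of 7340 lincRNA genes (long intergenic noncoding RNAs), 370 (5.04%) were transcribed, and of 5442 genes annotated as antisense, 277 (5.09%). Protein-coding genes held 94.0% of sense counts in replicate 1 and 93.7% in replicate 2, and lincRNA genes 2.79% and 3.01%. Genes nested in others had higher shares: 252 of 892 snoRNA genes and 319 of 882 sense-intronic genes passed, but 231 and 305 of these overlapped a same-strand gene or lay just after one, so their level cannot be separated from that of the gene around them.

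Counts were spread over many genes. With genes ranked within each library, the 10 with the most sense counts held 2.17% of counts in replicate 1 and 2.75% in replicate 2. The top 100 held 11.3% and 13.0%, and the top 1000 held 44.5% and 47.8%. The 10 genes named next had the largest share of sense counts averaged over both libraries. Most of them were long genes at moderate RPKM. PVT1, a long noncoding RNA gene beside MYC, led replicate 1 with 112429 counts (0.268%), and TRIO, which encodes a guanine nucleotide exchange factor, led replicate 2 with 82413 (0.377%). Their RPKM values were 7.37 and 8.90 for PVT1 and 5.97 and 8.66 for TRIO. NTM, a neural cell adhesion gene that spans 965450 bases after exclusion of shared bases, was the longest of the 10, with an RPKM of 1.84 and 3.13. PTK2 (focal adhesion kinase, 5.87 and 6.58), PARD3 (a polarity protein, 2.88 and 3.12), PALLD (an actin-binding protein, 4.28 and 3.83), EDIL3 (a matrix ligand of integrins, 4.4 and 3.31), EXT1 (a heparan sulphate polymerase subunit, 3.84 and 6.75) and ERBIN (a scaffold of the ERBB2 receptor, 8.30 and 11.1) followed the same pattern. MALAT1 was the only one of the 10 shorter than 10 kb.

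Gene length set where the counts lay. The 714 protein-coding genes over 300 kb made up 3.62% of protein-coding genes and held 17.1% and 17.9% of their sense counts, although only 24.7% of them were transcribed. Genes of 100 to 300 kb held 34.8% and 35.0%, with 44.6% transcribed, and genes of 10 to 100 kb held 45% and 43.5%, with 41.4% transcribed. The 5761 genes under 10 kb held 3.11% and 3.63%. The order by level ran the other way: the median mean RPKM of transcribed genes was 1.53 under 10 kb, 1.41 at 10 to 100 kb, 1.17 at 100 to 300 kb and 1.06 over 300 kb. The 150 genes at an RPKM of 10 or more had a median length of 6408 bases.

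The highest protein-coding genes were taken by their mean RPKM over the 2 libraries. They came from genes of at least 1 kb with no same-strand overlap and at least 50 counts in each library. CYR61, which encodes a secreted matrix protein and is a classical target of YAP, ranked first with an RPKM of 58.8 and 250. It was followed by HNRNPA2B1, an RNA-binding protein of the heterogeneous nuclear ribonucleoprotein family, at 64.0 and 122. ANKRD1, another YAP target, stood at 33.9 and 128, and CTGF, a matrix protein of the same family as CYR61, at 21.4 and 140. Beta-actin (ACTB) stood at 49.2 and 101, gamma-actin (ACTG1) at 12.3 and 40.1, and the thymosin gene TMSB10 at 29.1 and 33.2. DHRS2, a short-chain dehydrogenase gene, reached 35.3 and 71.0. The remaining places went to early response genes (EGR1, MCL1, DUSP1, FOS, JUN and IER3), to the translation factor EEF1A1 at 31.5 and 38.7, to the splicing factors TRA2B at 27.1 and 36.2 and SRSF1 at 24.9 and 30.5, to the chaperone HSP90AB1 at 21.5 and 37.3, to the linker histone H1F0 at 17.5 and 39.2 and to the small GTPase gene RND3 at 12.5 and 42.8. All 20 were higher in replicate 2, from 1.24-fold for TMSB10 to 19.2-fold for FOS, so their order differed between the libraries. A mean lets a gene enter through 1 library, as FOS did at 3.97 and 69.9. The shared direction is therefore partly set by the choice, and the 20 are not the highest of each library.

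**Figure D1:**
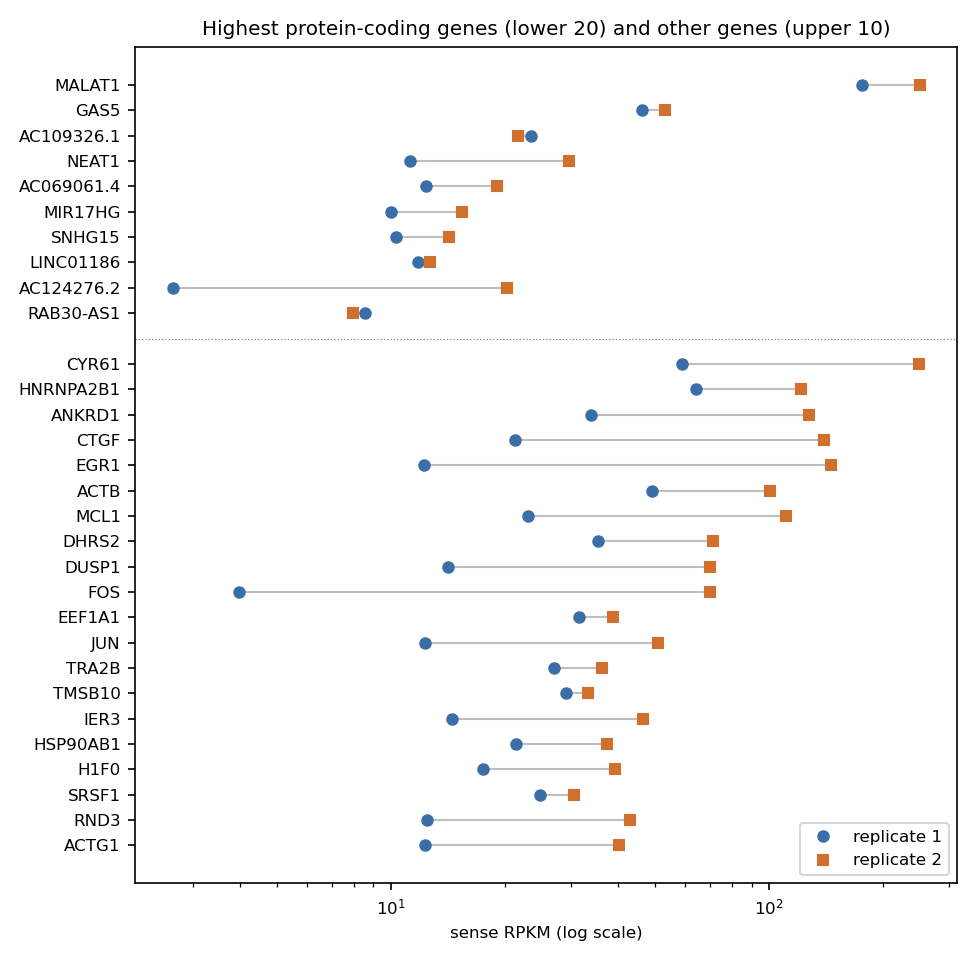
Sense RPKM (log axis) of the 20 highest protein-coding genes and the 10 highest genes of other types, with a circle for replicate 1, a square for replicate 2 and a grey line joining them. The lines are short for MALAT1, GAS5, EEF1A1, TRA2B and TMSB10 and long for FOS, EGR1 and AC124276.2, each of them higher in replicate 2.

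Among other gene types chosen by the same limits, MALAT1, the abundant nuclear RNA of splicing speckles, was highest at 177 and 251. GAS5, a host gene of small nucleolar RNAs, stood at 46.2 and 53.1. NEAT1, the RNA scaffold of paraspeckles, stood at 11.2 and 29.6, and its 2.87-fold difference between the replicates exceeded the 1.55-fold difference of its neighbour MALAT1. MIR17HG, which hosts the miR-17 to miR-92 cluster, stood at 10.0 and 15.5, and SNHG15, another snoRNA host, at 10.3 and 14.3. The antisense gene RAB30-AS1 differed little, at 8.53 and 7.94, whereas AC124276.2 stood at 2.65 and 20.3. Outside these limits, and chosen after its values were seen, RN7SL2, a signal recognition particle RNA gene made by RNA polymerase III, had the highest RPKM of all genes with 351 and 2059. It is 300 bases long, overlaps a same-strand gene and has near-identical copies, so its level is uncertain.

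Promoter sequence was read for the 150 genes at an RPKM of 10 or more and for the tiers below. RefSeq promoter windows (GRCh38.p14, 250 bases before to 50 after the start) matched 82.7% of the top tier, 82.6% of the tier of 2 to 10 and 82.9% of that of 0.5 to 2. The motif TATAAA, searched on the gene's strand in the 60 bases before the start, was present in 20.2% of the matched genes of the top tier, against 2.79% and 1.23% in the next tiers and 3.09% of all 27305 promoters. The CArG box, the binding motif of serum response factor (SRF), whose pattern reads the same on both strands, was searched in the 250 bases before the start. It was present in 4.84% of the top tier, against 1.43%, 0.715% and, over all promoters, 1.14%. RefSeq starts can lie away from the starts in the deposited tables, and a match of letters does not show that a factor was bound. In the tiers below an RPKM of 0.5 the check is void, because fewer than 80% of genes matched a promoter entry. Among those that did match, TATAAA was also found, in 12.8% of genes with no count and 5.02% of genes above 0 and up to 0.1. These shares are not compared with those of the tiers above.

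Shown here are windows of 60 bases from promoters of genes at the top of the level ranking or of the replicate difference, since they carry the motifs just counted. The sequences are from RefSeq on GRCh38.p14, written 5′ to 3′ on the strand of the gene, with TATAAA or the CArG box in capitals.
CTGF, minus strand, chr6:131951373-131951432: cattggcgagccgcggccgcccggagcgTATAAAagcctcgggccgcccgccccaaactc
DUSP1, minus strand, chr5:172771196-172771255: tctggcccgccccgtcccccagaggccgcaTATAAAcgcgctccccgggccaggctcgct
FOS, plus strand, chr14:75278768-75278827: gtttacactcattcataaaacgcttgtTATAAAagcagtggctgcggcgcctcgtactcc
FOSB, plus strand, chr19:45467936-45467995: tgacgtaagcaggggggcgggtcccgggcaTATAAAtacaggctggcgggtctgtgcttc
CXCL8, plus strand, chr4:73740509-73740568: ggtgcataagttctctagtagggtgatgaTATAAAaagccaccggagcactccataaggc
EGR1, plus strand, chr5:138465371-138465430: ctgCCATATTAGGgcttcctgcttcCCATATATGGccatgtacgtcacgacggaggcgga
ACTG1, minus strand, chr17:81512859-81512918: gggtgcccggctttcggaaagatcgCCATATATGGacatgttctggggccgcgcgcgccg
RND3, minus strand, chr2:150487733-150487792: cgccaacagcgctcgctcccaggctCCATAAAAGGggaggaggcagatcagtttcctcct
The TATAAA runs began 30 bases before the start in FOSB and DUSP1, 31 in CXCL8, 32 in CTGF and 33 in FOS. The EGR1 window held 2 CArG boxes and those of ACTG1 and RND3 held 1 each. Of the 20 highest protein-coding genes, 15 had an entry, of which 4 had TATAAA and 3 a CArG box in the stretches searched.

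Few osteoblast genes were transcribed. Of the 20 osteoblast genes, 4 (20%) were transcribed, below the 36.2% of all protein-coding genes. SPARC, a matrix protein abundant in bone, stood at 3.85 and 2.71, and COL1A1, the main chain of type I collagen, at 1.89 and 2.74. The transcription factor gene MSX2 (0.523 and 0.575) was just past the threshold. RUNX2 was above it in replicate 1 (0.686) and below it in replicate 2 (0.4). Several defining osteoblast genes were near or at 0: SP7 and DLX5 had no count in either library, IBSP had 1 count in replicate 1, COL1A2, the second chain of type I collagen, had 1 count in replicate 2, and alkaline phosphatase (ALPL) stood at 0.00900 and 0.00837. Osteocalcin (BGLAP), which overlaps a same-strand gene, stood at 0 and 0.231, and PHEX, a bone peptidase gene, at 0.131 and 0.109. No count for SP7 allows an RPKM of up to 0.00613 in replicate 1 and 0.0118 in replicate 2, taking 3 counts as the limit. In bulk RNA, fewer cells of a type and less RNA per cell cannot be told apart. By these markers the label of osteosarcoma origin was met in part: type I collagen chain COL1A1 and SPARC were present, and the defining genes SP7 and IBSP were not detected above single counts.

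Cartilage genes were also few, at 18.2% transcribed against 36.2% of all protein-coding genes. Of 11 chondrocyte genes, 2 were transcribed: HAPLN1, the link protein of cartilage matrix, at 3.54 and 2.59, and SOX9, the master factor of the lineage, at 1.73 and 1.21. The collagen gene COL2A1 (0.00573 and 0.00244) and aggrecan (ACAN, 0.0764 and 0.0654), both matrix genes that SOX9 is known to drive, lay far below the threshold, and COL10A1 had no count.

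General mesenchymal genes were the best represented of the 15 cell type lists, with 8 of 18 (44.4%) transcribed, near the 36.2% of all protein-coding genes, and 4 of the 8 without overlap or an active same-strand neighbour. Vimentin (VIM), the mesenchymal intermediate filament, stood at 20.6 and 13.8. The repressor genes of the epithelial state SNAI2 (2.19 and 1.44) and ZEB1 (1.27 and 1.45) and N-cadherin (CDH2, 1.87 and 2.44) were transcribed in both libraries. Fibronectin (FN1) stood at 0.736 and 1.63. The 10 members not transcribed were ENG, FBN1, NT5E, PDGFRA, PDGFRB, PRRX1, THY1, TWIST1, TWIST2 and ZEB2. Of these, TWIST1 had no count, NT5E stood at 0.00781 and 0.0200, and ZEB2 at 0.0198 and 0.0245. The surface marker genes THY1 (0.443 and 0.251) and ENG (0.176 and 0.163) were also below the threshold, so the list was mixed. On the epithelial side 1 of 15 genes passed, the keratin KRT18 at 1.29 and 1.51. E-cadherin (CDH1) stood at 0.00431 and 0.00591, and its summed list reached 2.22 and 2.28, against 31.2 and 28.2 for the mesenchymal list, to which VIM alone gave 20.6 and 13.8.

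Lists of distant lineages were close to silent. None of 13 skeletal muscle, 15 blood, 8 endothelial, 8 glial, 10 hepatocyte or 12 germ cell genes was transcribed. All 15 blood genes had a mean RPKM under 0.1, and 7 of them had no count. The muscle factor MYOD1, beta-globin (HBB) and albumin (ALB) were among the genes with no count in either library. Single members of other lists passed: the adipocyte factor PPARG (0.621 and 0.747), the neurofilament gene NEFL (0.767 and 0.804), the melanocyte factor MITF (0.830 and 1.01) and LIN28B (0.894 and 0.700), a regulator of let-7 microRNAs from the pluripotency list. PPARG and NEFL overlap another gene on their strand. In the smooth muscle list 2 of 8 passed, CNN1 at 0.669 and 4.34 and SMTN at 0.895 and 1.24, and TAGLN stood at 0.241 and 2.46. MYOCD, the defining smooth muscle coactivator, stood at 0.135 and 0.0531, and ACTA2 at 0.0159 and 0.00871.

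**Figure D2:**
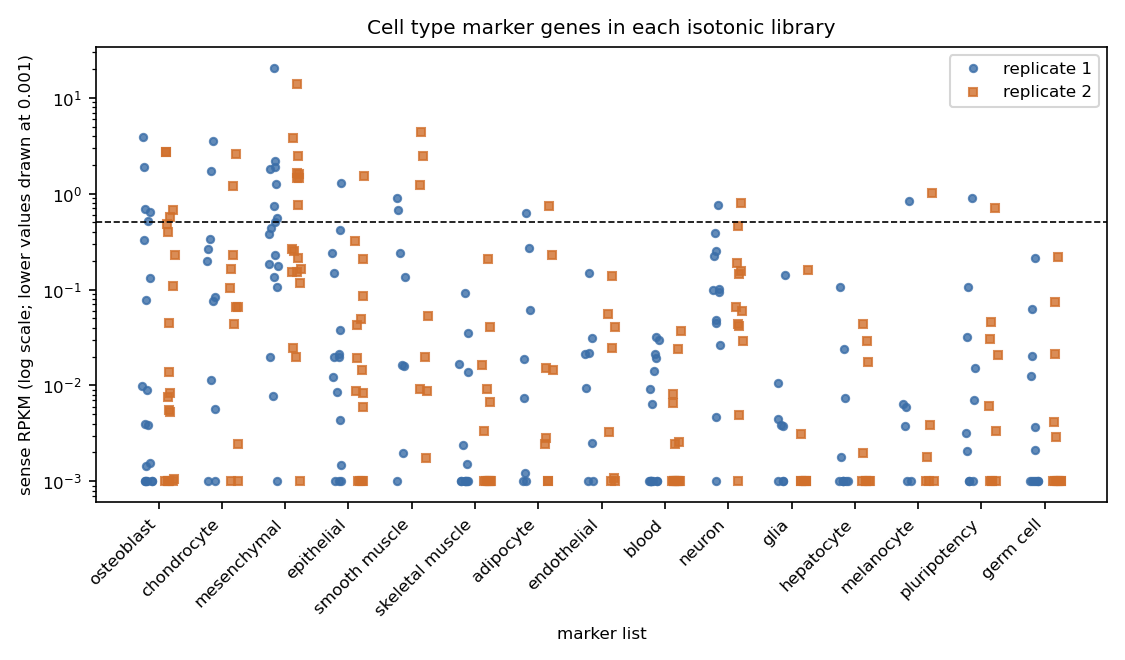
Sense RPKM (log axis) of every member of 15 cell type marker lists, with circles for replicate 1, squares for replicate 2 and a dashed line at the threshold of 0.5. Values under 0.001, including 0, are drawn at 0.001, and the mesenchymal list has the most members above the line.

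The HOX genes, which record position along the body axis, were partly transcribed. The shares were 18.2% in HOXA, 20% in HOXB, 33.3% in HOXC and 22.2% in HOXD, against 36.2% of all protein-coding genes. In HOXA 2 of 11 passed, HOXA9 (1.65 and 0.678) and HOXA10 (0.940 and 0.525), and in HOXB 2 of 10, HOXB9 (0.941 and 1.61) and HOXB6 (0.958 and 0.621). In HOXD 2 of 9 passed, HOXD10 (1.10 and 0.710) and HOXD11 (0.712 and 0.518). The 3 of 9 that passed in HOXC, namely HOXC9, HOXC6 and HOXC8, all overlap another gene on their strand. Across the 4 clusters the transcribed members carried the numbers 6 and 8 to 11, and no member numbered 1 to 5, 7, 12 or 13 passed. HOXB1 had no count.

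TERT and TERC, the catalytic and template genes of telomerase, were at or near 0, while DKC1, another component of its complex, stood at 3.58 and 3.63. TERT had 6 counts in replicate 1 and 1 in replicate 2 over 41881 bases, an RPKM of 0.00287 and 0.00092. TERC had 0 counts, but its 103 counted bases make the limit loose, at an RPKM of up to 0.584 and 1.12. Of the 24 genes of the telomere list, 17 (70.8%) were transcribed, against 36.2% of all protein-coding genes. ATRX, a chromatin remodeller often lost in cells that lengthen telomeres by recombination, was transcribed at 1.34 and 1.09, and its partner DAXX at 1.13 and 1.97. A read count does not show whether an intact protein is made. The shelterin genes TERF2 (2.02 and 1.8), TERF1 (1.24 and 0.991), TINF2 (1.45 and 1.5) and POT1 (0.767 and 0.688) were transcribed, as were the helicase genes WRN (1.74 and 1.87) and BLM (1.52 and 1.39) and the repair gene NBN (3.28 and 2.07). PML, the scaffold of the nuclear bodies of the same name, stood below the threshold at 0.341 and 0.267.

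Among 23 cell-cycle control genes, 17 (73.9%) were transcribed, against 36.2% of all protein-coding genes. CDKN2A and CDKN2B, neighbouring inhibitor genes on chromosome 9 at 21967753 to 21995301 and 22002903 to 22009363, had no count in either library, which allows CDKN2A an RPKM of up to 0.00218 and 0.00419. RB1 was transcribed at 0.918 and 0.881. The ubiquitin ligase gene MDM2 (2.94 and 3.75) and the kinase inhibitor gene CDKN1A (2.58 and 5.11) were transcribed. MYC stood at 11.3 and 35.7. The cyclin genes CCND1, CCND2 and CCNE1 were transcribed (1.37 and 2.07, 1.40 and 1.42, and 2.57 and 1.85), and CCND3 stood at 0.0652 and 0.0508.

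Genes of proliferating cells passed almost without exception. The lists given next all lay above the 36.2% of all protein-coding genes, from 62.1% for hypoxia and glycolysis to 97.3% for replication. Of 37 replication genes 36 were transcribed, with the ribonucleotide reductase gene RRM2 at 8.02 and 8.26 and thymidylate synthase (TYMS) at 8.42 and 5.66, and RPA3 alone stood below the threshold (0.234 and 0.167). Of 32 mitosis genes 31 passed, with CDK1 at 15.4 and 11.3. Heat shock and chaperonin genes passed in 24 of 25 cases, led by HSPA8 (which overlaps a same-strand gene) at 31.4 and 49.4, and sterol genes in 20 of 22. Of 29 YAP and SRF target genes 26 passed. The stress response list of the factor ATF4 passed in 15 of 22 cases, led by the amino acid transporter SLC38A2 at 23.0 and 20.7, and the hypoxia and glycolysis list in 18 of 29, with GAPDH at 16.2 and 13.1 and the hypoxia gene CA9 at 0.0110 and 0.00527.

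Receptor tyrosine kinase and interferon genes passed less often than the 36.2% of all protein-coding genes. Of 32 receptor genes 6 (18.8%) were transcribed, 3 of them with a same-strand overlap: AXL (2.37 and 3.72), the insulin-like growth factor receptor IGF1R (2.65 and 2.93), EPHA2 (0.897 and 1.64), FGFR1 (0.569 and 0.826), MET (0.653 and 0.693) and the collagen receptor DDR2 (0.663 and 0.523). EGFR stood at 0.244 and 0.318, and KIT had no count. Of 24 interferon response genes 1 passed. The cytosolic DNA sensor gene MB21D1, which encodes cGAS, stood at 0.740 and 0.434, and its partner TMEM173, which encodes STING, at 0.0993 and 0.169.

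Large families of specialised cells were nearly silent. Of 382 olfactory receptor genes 293 had no sense count in either library, and only OR2W3 was transcribed, at 0.752 and 1.18 on 35 and 29 counts. Keratin-associated protein genes of hair gave 1 of 94, KRTAP2-3 at 2.54 and 6.51. None of 45 defensin, 29 cornified envelope, 17 type I interferon, 95 T cell receptor V, 53 clustered protocadherin, 45 GABA and glutamate receptor, 21 UDP glucuronosyltransferase or 10 pregnancy-specific glycoprotein genes passed. Silence was not complete: DEFB115, a defensin gene, stood at 0.0713 and 1.86 on 7 and 95 counts. Also, of the 53 protocadherin genes 1 had no count, and 37 overlap another gene on their strand.

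Several families had a few active members. The shares were 7.27% for keratins, 10.5% for cancer-testis families and 9.09% for cytochrome P450 genes, against 36.2% of all protein-coding genes. Of 55 keratins 4 were transcribed, namely KRT17 (0.753 and 10.4), KRT80 (3.43 and 5.73), KRT81 (1.67 and 2.58) and KRT18. Of 57 genes of the cancer-testis families MAGE, GAGE, SSX, XAGE and PAGE, which are normally restricted to germ cells, 6 were transcribed, MAGEA1 (1.8 and 2.77), MAGEB2 (1.27 and 1.96), MAGEC1 (1.34 and 1.73), MAGEA12 (1.52 and 1.48), XAGE5 (1.27 and 1.12) and MAGEA4 (0.751 and 1.62). None of the 6 overlapped or followed an active same-strand gene, but members share sequence, so reads may be divided among copies. Of 55 cytochrome P450 genes 5 passed. Of these 5, 3 act on vitamin D, the activating enzymes CYP2R1 (0.659 and 0.628) and CYP27B1 (0.597 and 1.5) and the inactivating enzyme CYP24A1 (2.73 and 8.52), and CYP51A1 (2.73 and 2.87) acts in cholesterol synthesis.

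Matrix and adhesion families lay below the 36.2% of all protein-coding genes. Of 44 collagens 9 (20.5%) were transcribed, led by COL12A1 at 3.02 and 4.95, and of 26 integrins 5 (19.2%), with the common beta chain ITGB1 at 9.60 and 13.0 and ITGAV at 2.06 and 2.88. Of 24 claudins, the strand proteins of tight junctions, only CLDN12 passed (2.21 and 1.16), and CLDN1 stood at 0.485 and 1.76.

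In taste receptors the count depended on neighbours. Of 27 members 12 (44.4%) passed, of which 10 overlap another gene on their strand. Without such overlap and with no active gene just before them, 2 remained, TAS2R10 (0.909 and 0.901) and TAS2R5 (0.955 and 0.628). This restriction was added after the data were seen. Families of general function were high by contrast: 81 of 86 cytosolic ribosomal protein genes (94.2%) and 38 of 48 proteasome subunits (79.2%) were transcribed. The 249 of 509 ZNF zinc finger genes (48.9%) lay nearer to the 36.2% of all protein-coding genes. Of 71 replication-dependent histone genes 32 (45.1%) passed, with HIST1H4B at 71.4 and 25.8 and HIST1H1C at 49.2 and 53.9.

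**Figure D3:**
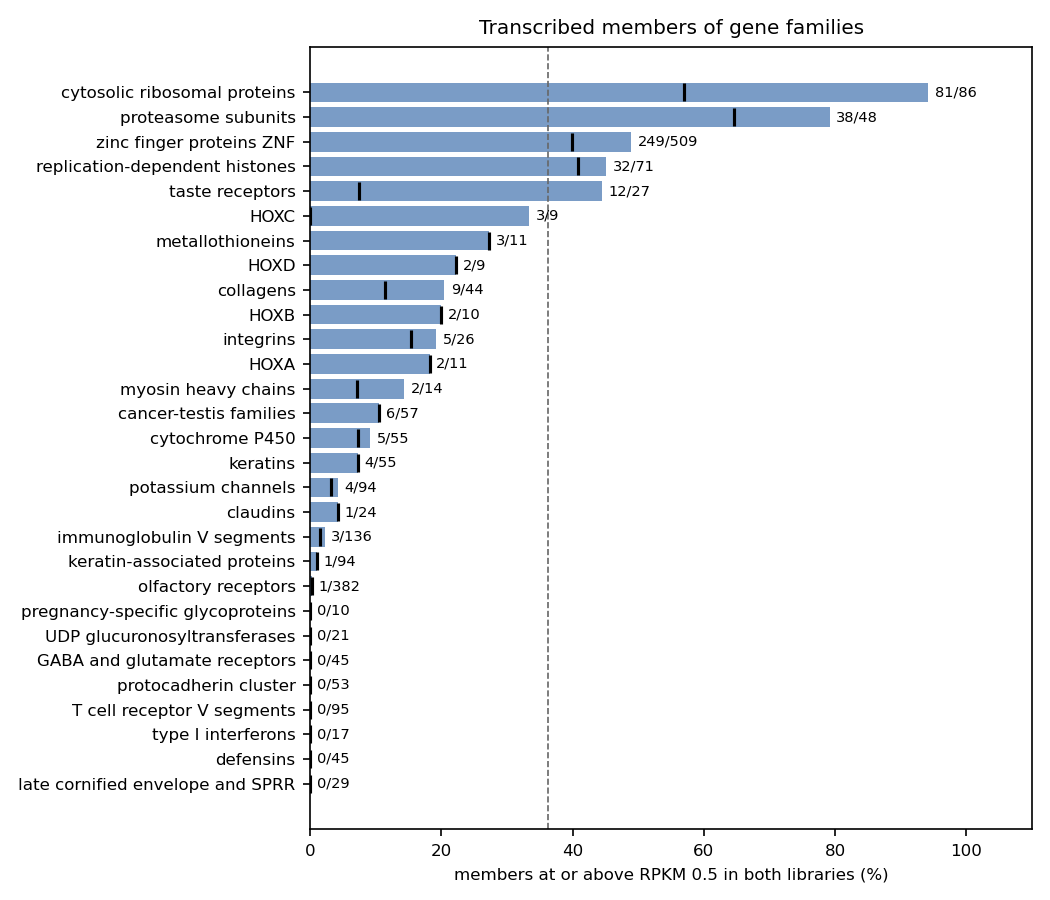
Percent of the members of each gene family that were transcribed (bars, with the number of members beside each), against 36.2% of all protein-coding genes (dashed line). The black tick gives the percent transcribed with no same-strand overlap and no active gene just before, and in taste receptors and HOXC it lies far left of the bar's end.

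Transcription was read almost wholly from the annotated strand. The library protocol in the labels ties strand specificity to actinomycin D in some samples without naming them. Over the 47489 genes with both entries the sense strand held 96.8% of counts in replicate 1 and 96.6% in replicate 2 (mean 96.7% ± 0.139, SD, n = 2). Restricted to genes with no overlap on either strand and no gene within 10 kb on the other, it held 97.9% in each.

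For single genes the antisense RPKM was taken as a percent of the sense RPKM, in transcribed protein-coding genes only. That choice requires sense signal, so these values cannot be set against the sums above. There were 1171 isolated genes, with no overlap on either strand and no gene within 10 kb on the other. In them the median was 0.105%. The antisense RPKM was under 1% of the sense RPKM in 87.4% of them. It reached 10% or more in 25. Over all 7004 transcribed protein-coding genes with both entries the median was 0.188%, 570 (8.14%) reached 10%, and in 33 the antisense level was at least the sense level. Of those 570, only 25 were isolated.

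The isolated genes with the largest antisense share were few and mostly of low level. AC118553.2 had 1.03 and 0.956 sense against 1.11 and 0.818 antisense. LOX, the enzyme that cross-links collagen, had a sense RPKM of 1.36 and 0.511 and an antisense RPKM of 0.475 and 0.853. The sense strand of LOX was the higher in replicate 1 and the antisense strand in replicate 2, with 1027 and 201 sense counts and 359 and 336 antisense counts. STK17A, a kinase gene, had 3.08 and 2.13 sense against 0.714 and 0.825 antisense (29.5% over both libraries). EDN1, the endothelin gene, had 1.35 and 3.63 sense against 0.214 and 1.10 antisense (26.4%). TMED4, KLHL20, GTF3C3, LEO1 and ATP6V0B had 18.3 to 25.6%.

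**Figure D4:**
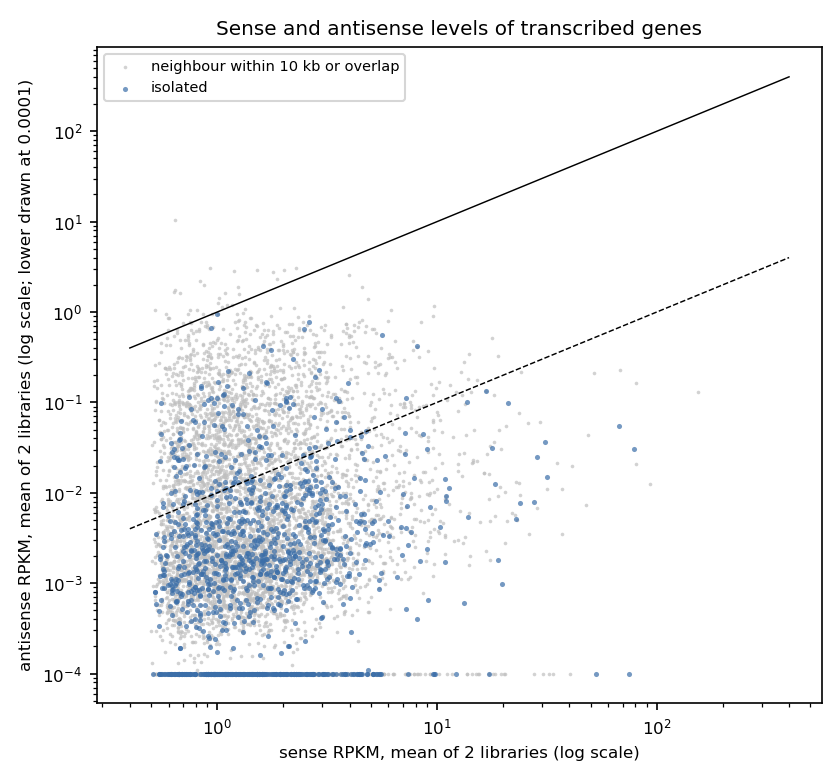
Antisense against sense RPKM (log axes, means of 2 libraries) of transcribed protein-coding genes, with isolated genes in blue and genes with an overlap or a neighbour within 10 kb in grey. The solid line marks equal levels and the dashed line 1%, values under 0.0001 are drawn at 0.0001, and most blue points lie below the dashed line.

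Most genes differed by less than 2-fold between the replicates. Of 17303 genes, 131 (0.757%) were at least 4-fold higher in replicate 2 and 73 (0.422%) at least 4-fold lower. At 2-fold the numbers were 927 (5.36%) and 822 (4.75%). Of all 17303 genes, 8484 had a log2 ratio above 0 and 8819 below 0. The split between directions depended on scaling: with the deposited RPKM it was 106 higher and 112 lower, and with upper-quartile scaling 129 and 76, because RPKM scaling shifts the median of all genes from -0.01 to -0.13 on the log2 scale. The spread was wider than counting error at every depth. For genes with 50 to 99 counts the SD of the log2 ratio was 0.89, against a median counting SD of 0.38, and for genes with 10000 or more it was 0.46 against 0.02.

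The 131 genes higher in replicate 2 included 23 immediate early genes, against 37 among all 17303 measured genes. Of the 131, 85 were protein-coding and 46 were not, whereas 13085 of the 17303 measured genes were protein-coding. The 85 protein-coding genes had a median length of 8637 bases, against 33820 over all measured protein-coding genes, and the immediate early list holds genes switched on within minutes of a stimulus without new protein synthesis. Of the 44 list members 37 were measured, all 37 above 0, with a median log2 ratio of 2.43 (median of all genes -0.01). Among them 32 differed by 2-fold or more and 23 by 4-fold or more. The list was chosen with earlier results of these data known.

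The largest difference was that of NR4A3, an orphan nuclear receptor gene. It had 175 counts in replicate 1 and 10226 in replicate 2, an RPKM of 0.0779 and 8.75, which was 122-fold higher (95% interval 105 to 143). Its relatives NR4A1 and NR4A2 differed less. NR4A1 stood at 0.242 and 10.3 and NR4A2 at 0.233 and 5.17, 46.1-fold and 24.1-fold higher. All 3 were below the threshold of 0.5 in replicate 1 and above it in replicate 2. The synaptic gene ARC had 22 and 246 counts, 22.5-fold higher.

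Several AP-1 and EGR transcription factor genes were also at least 4-fold higher. FOSB, second to NR4A3 among the named genes, stood at an RPKM of 0.12 and 6.94 (61.7-fold, interval 46.6 to 87.6) and FOS at 3.97 and 69.9 (19.2-fold, interval 17.8 to 20.8). EGR1 stood at 12.2 and 146, 13.0-fold higher, and EGR2 at 0.274 and 5.66, 22.3-fold higher. ATF3, a stress factor, stood at 1.28 and 14 (11.9-fold) and JUNB at 1.17 and 9.22. The members that differed least were GADD45B (5.2 and 5.71), JUND (2.53 and 2.96) and PHLDA1 (0.539 and 0.774). The phosphatase gene DUSP5 differed 12.5-fold, at 0.348 and 4.02. The 7 members with too few counts to be measured included KLF4, with no count, and DUSP6, which stood the other way at 0.0598 and 0.00638.

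Promoter windows of FOS, FOSB and EGR1 are printed above. Of the 15 genes with the largest ratio 9 had a RefSeq entry, of which 4 had TATAAA and 1, EGR1, a CArG box. Over all promoters the shares were 3.09% and 1.14%. Here too fewer than 80% had an entry, so the counts are not compared with these shares. No share is given for the immediate early list or for the genes at least 4-fold higher, since fewer than 80% of either had an entry.

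Targets of related pathways were also higher in replicate 2. Of 13 measured genes of the NF-kB list 12 were above 0, against 8484 of all 17303 measured genes. Their median log2 ratio was 1.38. The chemokine genes CCL20 (0.334 and 4.23) and CXCL8 (0.762 and 7.88) differed most, 13.6-fold and 11.2-fold, and NFKBIA, the pathway's feedback inhibitor, differed little (7.96 and 9.38). Of 29 YAP and SRF targets 27 were above 0, with a median of 0.95 and 14 at 2-fold or more. TAGLN differed 10.9-fold, CTGF 7.13-fold and CYR61 4.64-fold, while LATS2 (2.11 and 1.96) and AJUBA (3.82 and 3.26) differed little. KRT17 was 14.9-fold higher. Outside the named-gene rule, and picked after their values were seen, THBS1 (3.00 and 24.0), INHBA (7.81 and 29.1) and RCAN1 (0.581 and 5.01) were also among the 131 genes. The immediate early list and the YAP and SRF list overlap in part: CYR61, CTGF and SRF stand in both.

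Sterol, chaperone and replication lists had smaller medians. HMGCS1, an early enzyme of cholesterol synthesis, stood at 9.68 and 37.5, 4.22-fold higher, and FASN, the fatty acid synthase gene, at 0.617 and 2.06, whereas the median of 21 measured sterol genes was 0.20. HSP90AA1 stood at 1.32 and 3.80 and DNAJB1 at 0.956 and 2.45, in a list with 21 of 24 measured genes above 0 and a median of 0.39. Of 37 replication genes 0 differed by 2-fold, with a median of -0.11.

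Of the 73 genes at least 4-fold lower in replicate 2, 6 were transcribed in both libraries. The same held for 49 of the 131 higher genes and for 8808 of all 17303 measured genes. A gene that differs 4-fold passes the threshold in both libraries less easily. The lowest ratio of all genes, picked after its values were seen, was that of AC020550.1, a pseudogene that overlaps a same-strand gene, at 7.51 and 0.0557 (log2 -4.89). IFIT1, an interferon response gene, had 304 counts in replicate 1 and 9 in replicate 2, an RPKM of 0.437 and 0.0249, 14.6-fold lower (95% interval 8.38 to 35.6). IFI44 was 4.34-fold lower, at 0.305 and 0.0622, and USP18 stood at 0.152 and 0.0336. Of 14 measured interferon genes 12 were below 0, with a median of -0.64, 5 of them by 2-fold or more. C5orf46, FKBP7, PCDH18, CLEC2B and GPX8 were each over 4-fold lower, and GPX8, an endoplasmic reticulum peroxidase gene, was the highest of these at 2.63 and 0.552.

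Most mitosis genes were lower in replicate 2 by a smaller amount. Of 32 measured, 28 were below 0, with a median of -0.47, and 4 were at least 2-fold lower. PLK1, the polo-like kinase of mitotic entry, stood at 3.40 and 0.831, 3.74-fold lower. MAD2L1 (6.74 and 2.26), KIF20A (3.11 and 1.06) and cyclin A2 (CCNA2, 11.6 and 4.63) were the others, while CENPF was higher, at 6.76 and 9.03. With deposited RPKM scaling the median of this list was -0.60 and that of the immediate early list 2.3, so neither changed direction.

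DCP1A, the gene of the transgene, also differed. It had 11555 counts in replicate 1 and 12205 in replicate 2, an RPKM of 3.61 and 7.33, 2.21-fold higher in replicate 2. Reads from the transgene and from the endogenous gene on chromosome 3 cannot be told apart here, and DCP1A overlaps another gene on its strand. The part of depth, culture or handling in any replicate difference was not tested, and replicate 1 had more counts than replicate 2.

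**Figure D5:**
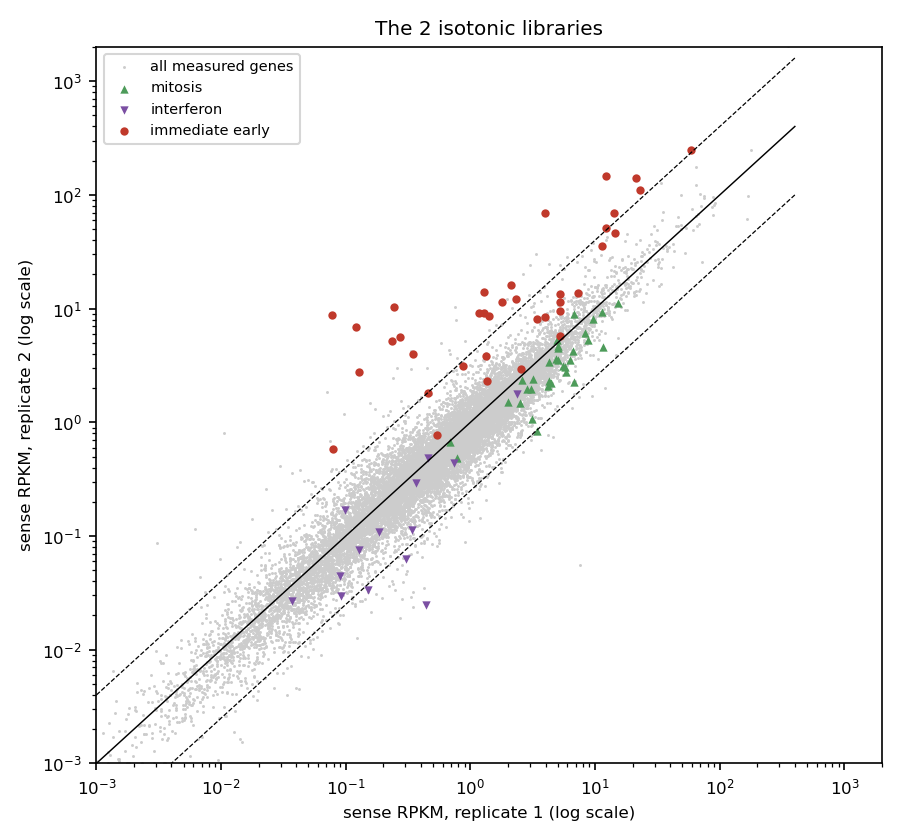
Sense RPKM of replicate 2 against replicate 1 (log axes) for 17303 genes (grey), with the immediate early (red circles), interferon (purple triangles pointing down) and mitosis (green triangles pointing up) lists. The solid line marks equal RPKM and the dashed lines a 4-fold difference in RPKM; most red points lie above the upper dashed line and most green and purple points below the solid line.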

How the data were processed

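Nascent RNA was measured by Bru-seq in 2 isotonic libraries. The submitters' processing notes list CASAVA (1.8.2), bedtools (2.16.2), STAR (2.5.3a) and Bowtie2 (2.3.3), with builds GRCh38 and hg38. The role of each tool and the annotation release: not given in the sources used here. The authors deposited an expected count and an RPKM value per gene and strand, in tables without a header, so these units were inferred from the numbers. The deposited RPKM equals the expected count over gene length and 1 constant per library, 49868009 for replicate 1 and 25962170 for replicate 2, whose meaning no source used here states. Each count is a read, with no molecular identifiers named. Bases shared by same-strand genes were kept apart by the authors in 48 entries per table, left out here, and how they were assigned at nested genes was not settled.

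Strand and gene type came from GENCODE 29 by Ensembl identifier (57429 genes; others, 0.175% and 0.174% of counts, were left out). Expected counts were rounded for TMM scaling in edgeR 4.0.16 (R 4.3.3); factors were 1.05 and 0.957. Ratios add 1 to each count. No test was run, since there is 1 group; the scaling step was tested on simulated data. Intervals are exact Clopper-Pearson at 95%, and limits for 0 use 3 counts. Tables and figures used Python 3.11.15, pandas 2.3.3, numpy 2.4.6, scipy 1.17.1 and matplotlib 3.10.9. Promoters were matched by symbol or unique synonym to RefSeq (GRCh38.p14), for 77.5% of protein-coding genes.

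Named genes are the 20 protein-coding and 10 other genes of highest mean RPKM (at least 1 kb, no same-strand overlap, 50 counts in each library), the 10 with the most counts, the 15 with the largest and 15 with the smallest replicate ratio (at least 200 counts), the 10 with the largest antisense share, and leading members of 29 gene lists and 29 families. The members, lists and rules were chosen with earlier results of these data known. Alternatives covered thresholds, overlaps, scaling, count minimums and each library alone. Some results are not reported here.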

Additional observations from a re-analysis of the deposited data

Results flagged for a closer look

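Counts in the entries that the authors kept for bases shared by several genes made up 3.35% of all counts in isotonic replicate 1. In isotonic replicate 2 they made up 3.18%. They lie outside the genes described above, and this share was not divided among genes.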

How the results depend on the processing

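Of 35 alternatives, 20 kept the value within 1.5 times the reported count or within the spread between replicates, and 15 moved it. With a threshold of 1, transcribed protein-coding genes fell to 4297, lincRNA genes to 185, osteoblast genes to 2 and olfactory receptor genes to 0, and with 0.25 olfactory receptor genes were 2. With 1 library alone, olfactory receptor genes ranged from 1 to 3. The sense share was 96.3% over genes with no overlap on either strand and 93.1% from RPKM sums. Genes past 4-fold between the replicates were 204, 411 with at least 20 counts, 89 with at least 200, and 1749 at 2-fold. The immediate early median (2.43) was 2.3 with RPKM scaling, 2.42 with upper-quartile scaling and 2.41 with at least 200 counts. No paired analysis was possible because a single group of 2 libraries was described and no test was run. Levels of nested and overlapping genes rest on part of their length, low genes are limited by counting error, and 2 libraries give no estimate of which of them is typical.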
